A study of Homo sapiens with 14 samples.

Results

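KMT2D peaks near 6 genes of the circadian clock, PER1, PER2, CRY2, NR1D1, BHLHE40 and BHLHE41, were examined in SCC23, a cultured cell line derived from a squamous carcinoma of the head and neck (HNSCC). A peak, meaning a stretch of genome where KMT2D ChIP fragments exceeded the local background, was counted when its summit lay within 50 kb of the gene. In all, 20 of the 13808 peaks in the list met this rule, and 5 of the 6 genes had at least 1 peak. The rule uses gene positions and no measured value, although the genes were picked with earlier results of these data known. The series labels describe 14 libraries, namely KMT2D and an input from wild-type cells, and histone H3 with 5 of its marks (H3K27ac, H3K27me3, H3K9me3, H3K4me3, H3K4me1) in wild-type and KMT2D knockout cells, all deprived of glucose for 6 hours. The peak list of 1 library, KMT2D in wild-type cells, was used, and the other 13 were not analysed here. Wild-type here means that KMT2D was intact, and the study calls the wild-type cells of its histone ChIP parental. With 1 library there was no replicate, so no difference was tested across samples. Intervals of fragments and fold enrichment cover counting error only, and those of numbers or shares of peaks treat peaks as independent, which neighbouring peaks are not, so they are too narrow.

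The circadian clock is a feedback loop of transcription. The heterodimer of CLOCK and BMAL1 binds E-box sequences and activates the genes of its own inhibitors, among them the PER and CRY proteins, which block the heterodimer, and NR1D1 (REV-ERB alpha), a nuclear receptor that represses the gene of BMAL1. BHLHE40 (DEC1) and BHLHE41 (DEC2) are helix-loop-helix repressors that occupy the same E-boxes, and BHLHE40 is also induced by hypoxia and other stresses. KMT2D methylates histone H3 at lysine 4, mostly at enhancers.

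KMT2D peaks were spread unevenly over the 6 genes. BHLHE40 had 8 peaks, PER1 had 5, NR1D1 and BHLHE41 had 3 each, PER2 had 1 and CRY2 had none. BHLHE40 alone held 49.1% of the ChIP fragments counted over the 20 summits. The highest fold enrichment, which is the scaled ChIP signal at the summit over the local background, was 12.8 at BHLHE40, 6.17 at BHLHE41, 5.56 at NR1D1, 4.91 at PER1 and 3.89 at PER2. A peak lay within 2 kb of the gene start, which is known to the nearest kb, at 3 genes, BHLHE40, NR1D1 and BHLHE41. The other genes, PER1, PER2 and CRY2, had none there. The share of all genes with a peak at the start was not computed, because the reference at hand is GRCh38. Whether 3 of 6 is usual for this list is therefore not known.

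**Figure D1:**
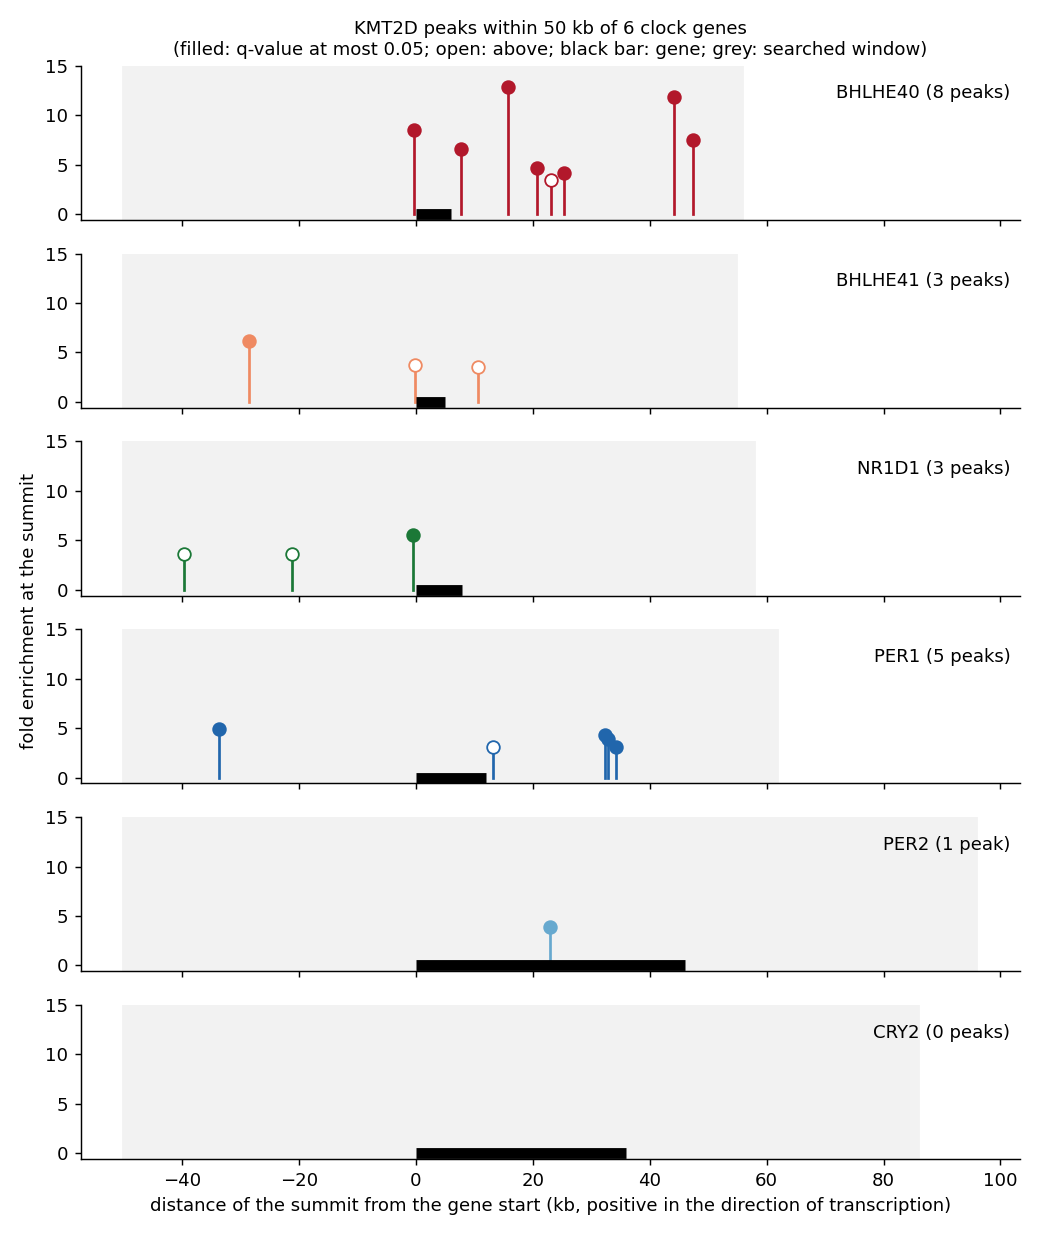
KMT2D peaks around the 6 clock genes, with the distance of each summit from the gene start in kb on the horizontal axis (positive in the direction of transcription) and fold enrichment on the vertical axis. The 8 peaks of BHLHE40 lie at and downstream of the gene with values up to 12.8, whereas CRY2 has no peak in its window.

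The sequences at the 3 starts with a peak, and at the PER1 start as one without, are shown because the E-box is the site through which the clock regulates these genes. Each runs from 250 bases before to 50 bases after the start, 5′ to 3′ on the gene's strand, and comes from RefSeq (GRCh38.p14). All 6 genes were found in that table, with 7 start windows, as CRY2 has 2. The peaks themselves are on GRCh37, and no peak coordinate was carried over to this build. Capitals mark the canonical E-box, CACGTG.
BHLHE40, chr3:4979187-4979486, plus strand: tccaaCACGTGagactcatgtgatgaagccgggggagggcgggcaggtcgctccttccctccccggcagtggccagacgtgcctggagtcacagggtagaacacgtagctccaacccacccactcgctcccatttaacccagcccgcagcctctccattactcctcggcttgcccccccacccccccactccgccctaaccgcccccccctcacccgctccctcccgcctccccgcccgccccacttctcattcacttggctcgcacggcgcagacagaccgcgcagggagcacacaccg
BHLHE41, chr12:26124988-26125287, minus strand: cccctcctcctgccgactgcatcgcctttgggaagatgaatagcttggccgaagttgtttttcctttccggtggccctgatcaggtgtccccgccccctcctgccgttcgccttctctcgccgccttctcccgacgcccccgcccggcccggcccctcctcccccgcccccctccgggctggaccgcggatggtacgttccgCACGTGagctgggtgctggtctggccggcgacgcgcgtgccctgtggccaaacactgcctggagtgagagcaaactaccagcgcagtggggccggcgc
NR1D1, chr17:40100540-40100839, minus strand: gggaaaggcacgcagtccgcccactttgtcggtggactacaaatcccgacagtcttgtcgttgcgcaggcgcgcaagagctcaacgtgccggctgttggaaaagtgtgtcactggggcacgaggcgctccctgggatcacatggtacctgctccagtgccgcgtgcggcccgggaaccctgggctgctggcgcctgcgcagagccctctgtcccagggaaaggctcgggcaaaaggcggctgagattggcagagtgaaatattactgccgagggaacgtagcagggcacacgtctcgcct
PER1, chr17:8152355-8152654, minus strand: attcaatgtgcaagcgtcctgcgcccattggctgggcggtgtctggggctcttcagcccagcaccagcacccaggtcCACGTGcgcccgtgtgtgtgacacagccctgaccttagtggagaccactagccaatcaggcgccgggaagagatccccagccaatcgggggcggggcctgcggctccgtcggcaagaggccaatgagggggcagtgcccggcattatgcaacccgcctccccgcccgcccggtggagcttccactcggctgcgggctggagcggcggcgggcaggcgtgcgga

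The canonical E-box was present once in the windows of BHLHE40, BHLHE41 and PER1, and these letters were not in those of NR1D1, PER2 and CRY2. Other forms of the E-box were not searched, so windows without these letters may still hold one. The first base of CACGTG lay 245 bases before the start in BHLHE40, 48 in BHLHE41 and 173 in PER1. Of all 35116 windows in the table, 7.26% hold it. A canonical E-box was thus present both at starts with a peak (BHLHE40 and BHLHE41) and at a start without one (PER1). It was not found at the NR1D1 start, which had a peak. Of the other motifs searched on both strands, the cyclic AMP response element TGACGTCA and the AP-1 site TGACTCA were in none of the 7 windows, against 1.85% and 4.95% of all windows. The AP-2 site GCCNNNGGC was in windows of PER1, PER2 and CRY2, the 3 genes without a peak at the start, against 23.2% of all windows. At CRY2 it was in the window with a GC content of 70.3% and not in that with 46.3%. The AP-2 site did not match in BHLHE40, BHLHE41 or NR1D1. GC content was 68.0% in the BHLHE40 window, 69.3% in BHLHE41, 63.0% in NR1D1, 69.0% in PER1, 80.3% in PER2 and 46.3% and 70.3% in the CRY2 windows, against a median of 58.7% over all windows.

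As a group, the 20 peaks had a median fold enrichment of 4.23 (range 3.09 to 12.8), against 4.01 for the 13136 peaks on the autosomes and X. The 12 peaks outside BHLHE40 had a median of 3.82 and the 8 of BHLHE40 a median of 7.02. A q-value of at most 0.05, as the authors' peak caller gave it, was reached by 14 of the 20 peaks (70.0%, 95% Wilson interval 48.1 to 85.5%), with 58.5% of the whole list as background. Outside BHLHE40 it was 7 of 12, or 58.3%, and at BHLHE40 it was 7 of 8. Fragments over the summit numbered 16 to 74 with a median of 31, where the genome-wide background gives 2.88 fragments and the median over chromosomes 1 to 22 and X was 25. Peak width ranged from 241 to 2015 bp, and 4 of the 20 were wider than 1 kb, against 5.63% over chromosomes 1 to 22 and X. These 4 were 2 peaks each of BHLHE40 and PER1.

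**Figure D2:**
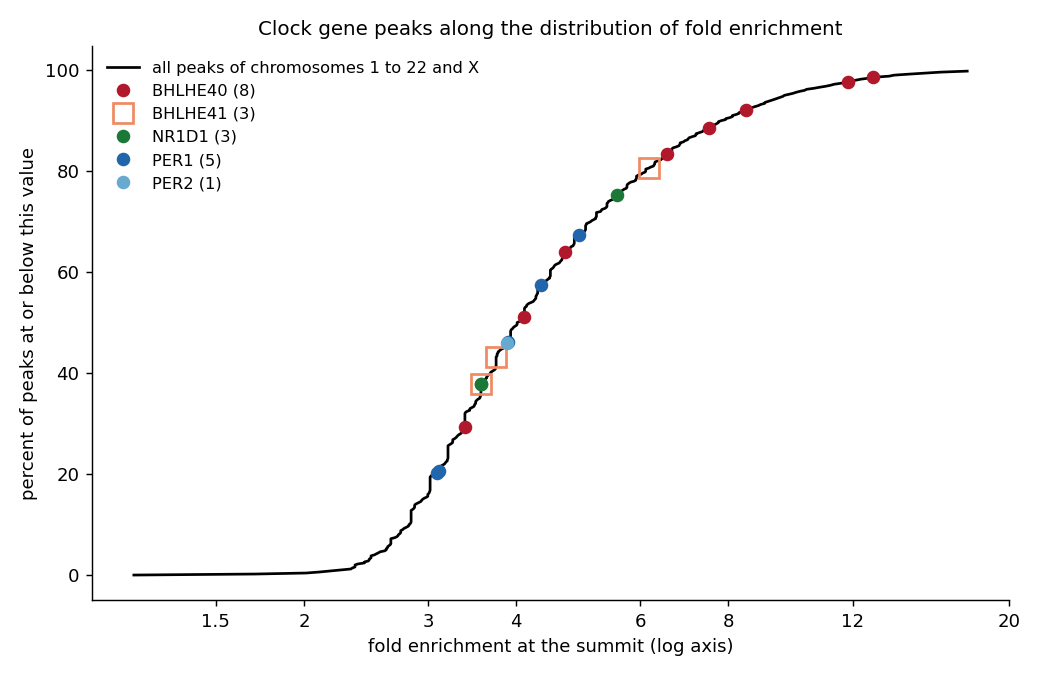
Fold enrichment of the clock gene peaks along the cumulative curve of all 13136 peaks on the autosomes and X, with fold enrichment on a log axis and the percent of peaks at or below each value. Of the 8 BHLHE40 peaks, 5 lie above every peak of the other genes, and the peaks of PER1, PER2, NR1D1 and BHLHE41 lie between 3.09 and 6.17, with 1 PER1 point behind that of PER2 at 3.89.

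BHLHE40, a repressor that competes for E-boxes, carried the densest group. The first peak, chr3:5019102-5021116 on GRCh37, lay at the gene start, within the 1 kb to which the start is known, and was the widest of the 20 at 2015 bp. Its summit had 44 fragments (95% Poisson interval 32.0 to 59.1) and a fold enrichment of 8.47. The remaining 7 summits lay beyond the 3′ end of the gene. The next, 7.7 kb from the start, had a fold enrichment of 6.55 and 49 fragments.

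The highest peak of the whole group, chr3:5036319-5037718, lay 15.8 kb from the start, where 68 fragments (52.8 to 86.2) gave a fold enrichment of 12.8. It ranked 190 of 13808 in the list by fold enrichment. Another peak of like height, chr3:5064935-5065384, lay 44.2 kb from the start and was only 450 bp wide, with 74 fragments (58.1 to 92.9), a fold enrichment of 11.8 and the lowest q-value of the 20 peaks, 1.55e-22. The counting intervals of these 2 fold enrichments, 10.1 to 16.1 and 9.37 to 14.7, overlapped, and both lay wholly above the interval of the highest peak at any other of the genes, 4.61 to 8.12 at BHLHE41. That of the start peak, 6.28 to 11.2, overlapped all 3. By number of fragments, the interval of that BHLHE41 peak, 33.7 to 61.4, overlapped those of both high BHLHE40 peaks. Its local background was 1.83 times the genome-wide level, against 1.0 and 1.34 times at these 2 BHLHE40 peaks. The part of the background in the gap between fold enrichments was not tested.

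The last BHLHE40 peak, 47.4 kb from the start, had a fold enrichment of 7.50 and 42 fragments. Between the high peaks lay 3 smaller ones at 20.7, 23.2 and 25.4 kb, with fold enrichments of 4.68, 3.38 and 4.11 and 30, 16 and 20 fragments. The one at 23.2 kb had a q-value of 0.217 and was the only BHLHE40 peak above 0.05. The start peak had neither the highest fold enrichment of its gene nor the most fragments.

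The BHLHE40 peaks stood apart from other peaks. Neighbouring summits lay 2.29 to 18.8 kb apart over 47.7 kb, the next peak beyond them lay 161.0 kb away, and the nearest on the other side lay 560.0 kb away. Stitching peaks over gaps no longer than 12.5 kb joined the first 6 into 1 cluster, chr3:5019102-5046595, of 27.5 kb, the only such cluster that overlapped any of the 6 genes. This depended on the gap, as 0 genes lay in a cluster with gaps no longer than 5 kb and 2, BHLHE40 and NR1D1, with gaps no longer than 25 kb. At 5 kb the BHLHE40 peaks from 15.8 to 25.4 kb from the start still ran together, but beyond the gene. Of 1071 clusters of at least 3 peaks in the list, 156 (14.6%) held 6 or more. With the 3 peaks of a cluster near PER1, 9 of the 20 peaks lay in clusters, against 33.8% of peaks on the autosomes and X. By the reference annotation (GRCh38.p14, used for names and order only), BHLHE40 was the only one of the 6 genes with no other protein-coding gene within 50 kb.

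BHLHE41, the close relative of BHLHE40, had 3 peaks. A peak at its start, chr12:26277983-26278869, rested on 18 fragments (10.7 to 28.4), with a fold enrichment of 3.75 and a q-value of 0.217. The strongest, chr12:26306326-26306594, lay 28.5 kb upstream with 46 fragments (33.7 to 61.4), a fold enrichment of 6.17 and a q-value of 5e-08. The last lay 10.6 kb downstream of the start with 17 fragments, a fold enrichment of 3.56 and a q-value of 0.217. The distal peak had more fragments than the start peak, without overlap of the intervals, but its local background was 1.83 times the genome-wide level. By fold enrichment the intervals of both, 4.61 to 8.12 and 2.41 to 5.64, overlapped, and the difference on that scale was not tested. The start fold enrichment of 3.75 lay below that of the BHLHE40 start, 8.47 (6.28 to 11.2), without overlap. SSPN overlaps BHLHE41 and RASSF8 lies beside it in the annotation, so these peaks cannot be assigned to 1 gene.

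NR1D1 had its highest peak at the start. This peak, chr17:38256922-38257725, had 28 fragments (18.6 to 40.5), a fold enrichment of 5.56 (3.86 to 7.83) and a q-value of 0.000101. The others lay 21.2 and 39.7 kb upstream with 17 fragments, a fold enrichment of 3.56 and a q-value of 0.217 each. Their values are the same because both rest on 17 fragments over the genome-wide background, which also holds for 1 BHLHE41 peak and for 370 peaks of the list in all. Only the start peak of NR1D1 thus passed a q-value of 0.05. The neighbours of NR1D1 in the annotation are MED24, THRA, which overlaps it, MSL1 and CASC3. MSL1 and CASC3 lie on the side of both upstream peaks, so these peaks cannot be assigned to 1 gene. THRA encodes a thyroid hormone receptor and is transcribed from the opposite strand.

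PER1, which encodes a core inhibitor of CLOCK and BMAL1, had 5 peaks, none of them with a summit closer than 13.2 kb to its start. The highest, chr17:8089320-8091128, lay 33.7 kb upstream with 41 fragments (29.4 to 55.6), a fold enrichment of 4.91 and a q-value of 2.42e-05. A cluster of 3 peaks, chr17:8021573-8025375, lay beyond the 3′ end, 32.4 to 34.2 kb from the start. These had fold enrichments of 3.09, 3.89 and 4.34 in order of position, with 38, 32 and 43 fragments and q-values of 0.0395, 0.00366 and 8.82e-05. The last peak, just past the 3′ end and 13.2 kb from the start, had 30 fragments, a fold enrichment of 3.10 and a q-value of 0.112. ALOXE3 and HES7 are the neighbours on the side of the cluster and VAMP2, TMEM107 and BORCS6 those on the other side, so that every PER1 peak lay outside the gene and on a side shared with other genes.

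The PER1 peaks differed from the others in their control signal. The local background at the 5 peaks was 2.18 to 3.65 times the genome-wide level, while at the other 15 it was 1.00 to 1.83 times. That level is only 2.88 fragments, so these multiples are small amounts of control signal. They have no interval, and the counting error in the control was not assessed. A background of at least 2 times that level was found at 13.4% of the 876 peaks of chromosome 17, and at 1 of the 21 further peaks within 500 kb of PER1. The PER1 summits held 30 to 43 fragments, within the counting interval of the BHLHE40 start (32.0 to 59.1) except for the summit with 30. Over their higher background these gave fold enrichments of 3.09 to 4.91, against 8.47 at the BHLHE40 start. The part of the background in the PER1 values was not tested.

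**Figure D3:**
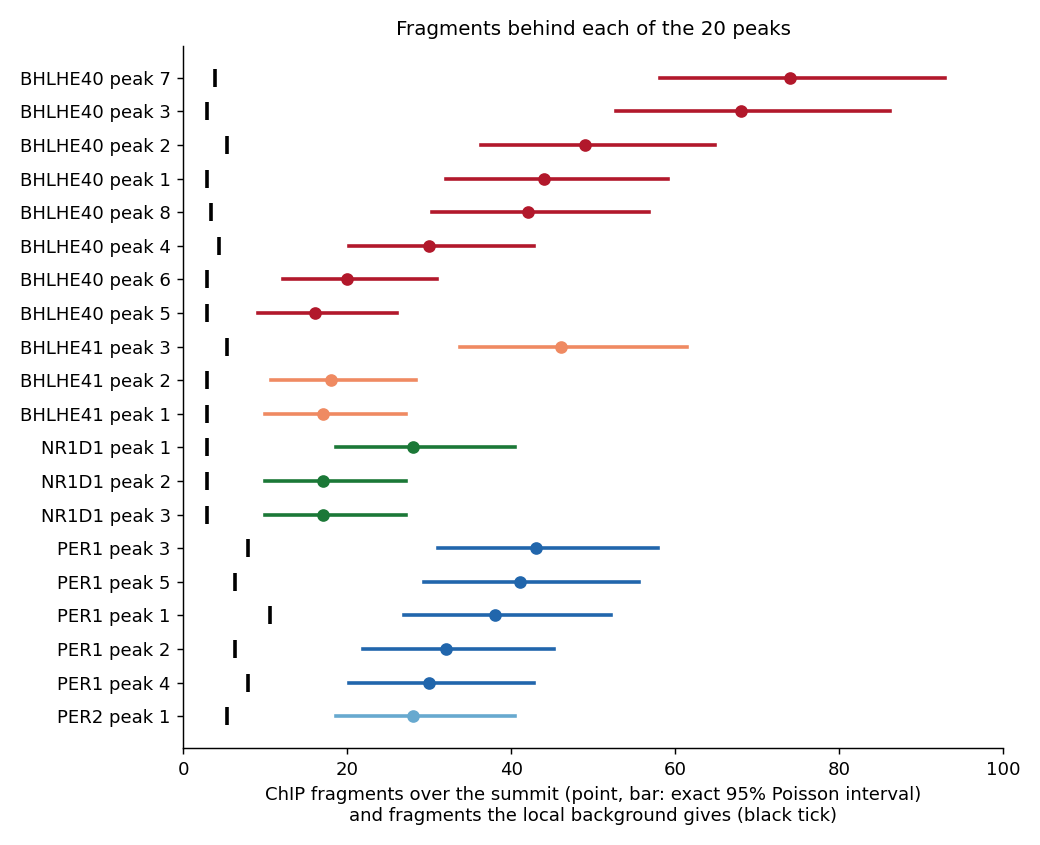
ChIP fragments over the summit of each of the 20 peaks, numbered by position on the chromosome within each gene, with exact 95% Poisson intervals as bars and the fragments that the local background gives as black ticks. Both largest numbers, 74 and 68, belong to BHLHE40, and the background ticks lie farthest right, up to 10.5 fragments, at PER1. The ticks carry no interval.

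PER2, the other period gene examined, had 1 peak, chr2:239175958-239176248, inside the gene and 22.9 kb downstream of the start. It had 28 fragments (18.6 to 40.5), a fold enrichment of 3.89 (2.69 to 5.47) and a q-value of 0.018, and 48.1% of the list had a lower fold enrichment. It was 291 bp wide and the only one of the 20 peaks with its summit within the bounds of a clock gene. The bounds used for PER2 span 46 kb where the annotated gene spans 56.0 kb, so the distance to its start is less certain than for the other genes. As the window held no other peak, a start at the outer end of the longer span would also lie without one nearby. ILKAP, HES6 and TRAF3IP1 are its neighbours in the annotation. The counting interval of its fold enrichment overlapped those of the highest peaks of PER1, NR1D1 and BHLHE41. Overlap of intervals does not settle an order, and the order of these 4 genes was not tested. On the scale of fold enrichment, the highest of the 8 BHLHE40 peaks lay above all of them. The study reports no effect of KMT2D loss on PER2 expression in HNSCC, without naming the glucose condition for that result. Expression was not examined here.

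CRY2, a cryptochrome that acts with the PER proteins, had no peak within 50 kb. The nearest summits lay 667.0 kb away on the lower side and 276.0 kb away on the higher side of the gene. Windows of this width without a peak are common: 24.9% of tiles as wide held at least 1 peak genome-wide, and 69.8% of those on chromosome 11 held none. The list holds only positions that passed the p-value threshold, so weaker KMT2D signal at CRY2 would not appear in it.

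To read the number of peaks per gene against the list, chromosomes 1 to 22 and X were cut into tiles as wide as each gene's window. Tiles with at least 8 peaks in 106 kb, as at BHLHE40, made up 0.533% of 27601 (0.219% on chromosome 3). The density there was 75.5 peaks per Mb (95% Poisson interval 32.6 to 149.0), against 4.04 per Mb over chromosome 3. At least 5 peaks, as at PER1, were found in 2.3% of tiles and in 8.15% of those on chromosome 17, which held 10.8 peaks per Mb. At least 3 peaks were found in 6.09% of tiles of the NR1D1 width (16.8% on chromosome 17) and in 5.98% of the BHLHE41 width (7.07% on chromosome 12). At least 1 peak was found in 26.1% of tiles as wide as the PER2 window. By length the order was closer at the top, since peaks covered 5.96% of the BHLHE40 window and 5.34% of the PER1 window, but 1.46% at BHLHE41, 1.32% at NR1D1 and 0.199% at PER2. Tiles cover ground with and without genes, and these shares are descriptions, since the genes were picked with results of these data known.

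**Figure D4:**
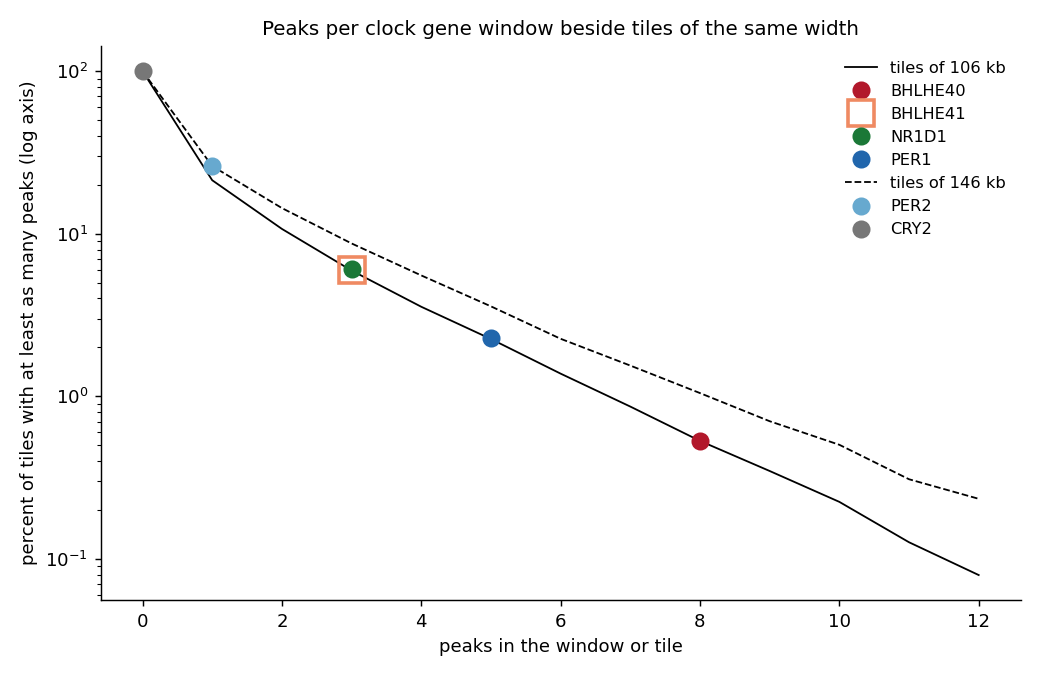
Peaks in each clock gene window (horizontal axis) beside the percent of tiles of the same width that hold at least as many (vertical log axis), with curves for tiles of 106 and 146 kb. BHLHE40 lies farthest to the right with 8 peaks and 0.533% of tiles, NR1D1 and BHLHE41 coincide at 3 peaks, and PER2 and CRY2 lie where tiles are common.

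The limit of 50 kb fell in a gap. The farthest of the 20 summits lay 41.4 kb from its gene, that of the last BHLHE40 peak, and the nearest summit left out lay 68.2 kb from PER1, with a fold enrichment of 3.38.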

How the data were processed

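Reads of the KMT2D ChIP library were mapped by the authors to hg19 (GRCh37) with Bowtie2, and uniquely mapped reads were used to call peaks with MACS2 at a p-value below 0.01. The control used for calling is not named, and no pooling is stated. The deposited columns hold the fold enrichment at the summit (a ratio with a pseudocount of 1), the −log10 of the p-value and of the q-value, and a score, 10 times −log10 p cut to a whole number, which was not analysed. Peak positions are printed counted from 1. Gene bounds came with the rule for the 6 genes, to the nearest kb on GRCh37, and strand from a GRCh38 annotation. Distances under 1 kb are therefore not resolved.

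From the deposited fold enrichment and −log10 p, the number of ChIP fragments at a summit and its local background were recovered, since MACS2 derives both from a whole number of fragments and 1 background. With a scale of 0.381 and 1.10 scaled fragments as genome-wide background, these matched the −log10 p of all 13808 peaks to within 0.000494. On 2 simulated lists, made with the same formulas that the recovery inverts, the exact number was recovered for 100.0% of 2975 and 2852 peaks. This checks the arithmetic only and cannot show whether MACS2 used that model. The simulated fragments and backgrounds also spanned narrower ranges than those of the list. Fragment numbers have exact Poisson intervals at the 95% level. Those of fold enrichment were computed from them with the background taken as known, so they are too narrow. A cluster was a run of at least 3 peaks with gaps no longer than 12.5 kb.

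The members and lists were chosen with earlier results of these data known. All peaks of the 6 genes are given, and neighbours are named only by the annotation. A list of 17 further clock genes and 4 squamous markers was not analysed here, because the reference at hand is GRCh38 and the peaks are on GRCh37. Alternatives were stricter q-values, other distances and gaps, counting by overlap, and merged peaks. The work was done in Python 3.11.15 with pandas 2.3.3, scipy 1.17.1 and numpy 2.4.6, and plots were drawn with matplotlib 3.10.9.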

Additional observations from a re-analysis of the deposited data

How the results depend on the processing

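Of 18 alternatives, all planned, 15 stayed within the range set for their result, 3 moved and 0 changed direction. Of the 20 peaks, 11 had a q-value no higher than 0.01 and 14 one no higher than 0.05. Their number was 15 within 25 kb, 27 within 100 kb, 20 when any overlap counted and 18 after peaks within 1 kb were merged. The median fold enrichment, 4.23, ranged from 3.89 within 25 kb to 6.17 for the 11 peaks. Genes with a peak at the start numbered 3 within 1, 2 and 5 kb, and 2 at either q-value, where BHLHE41 was lost. BHLHE40 was the only gene inside a cluster at the 12.5 kb gap. A gap limit of 5 kb left 0 such genes, and one of 25 kb gave 2, NR1D1 being added.

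No paired analysis was possible because peaks of only 1 of the 14 samples were at hand. With 1 library, which of the 6 weaker peaks (q-value above 0.05) would recur is unknown, and signal under the p-value threshold cannot be seen.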

Other observations

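The surroundings of the 6 genes differed from their windows. Between 50 and 500 kb from BHLHE40 only 3 further peaks were listed, with a highest fold enrichment of 5.41, less than at the gene itself. The reverse held at NR1D1, where 18 further peaks reached a fold enrichment of 13.9, and the nearest of these, chr17:38177600-38178568, lay 71.1 kb from the gene with 61 fragments and a fold enrichment of 11.6. At PER1, 21 further peaks reached 10.7, and at PER2 10 further peaks reached 9.20. At BHLHE41 the highest of 4 further peaks also exceeded every peak of its window. CRY2 had 4 peaks within 500 kb, all on its higher side, and 1 of them had a q-value of at most 0.05. BHLHE40 was thus the only one of the 5 genes with peaks whose highest peak within 500 kb lay inside the 50 kb window.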
